A study of Ovis aries with 12 samples.

Results

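The array signals of 8 nuclear genes that encode parts of the respiratory chain or of ATP synthase were examined in biceps femoris, a muscle of the thigh, from near-term sheep fetuses. Complex I was represented by NDUFA2 and NDUFA12, complex II by SDHD, complex IV by COX5A, and ATP synthase (complex V) by ATP5MC1, ATP5MC2, ATP5PD and ATP5PO, 8 of the 1022 genes named on the array. Each was found by gene symbol, older symbol, sheep RefSeq accession or the array's own description. No probe on the array was named for a complex III subunit, for cytochrome c or for any of the 13 proteins encoded by mitochondrial DNA.

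The 12 arrays were 6 from fetuses of ewes infused with cortisol (Solu-Cortef) at 1 mg/kg/day and 6 from fetuses of vehicle-infused ewes. Infusion ran from about day 115 of pregnancy to necropsy on day 139 to 144, and all ewes were killed soon after labour began, so both groups shared labour. Per the labels there were 7 ewes per arm and the fetuses were singletons; the labels number the arrays as replicates without saying that each is a separate fetus, so the p-values below measure the spread between these samples. The treatment text in the labels speaks of heart (left ventricular free wall), with 5 samples per group, whereas the titles and the tissue field name the biceps femoris and the series holds 6 arrays per group. The treatment was given to the ewe, and what reached the fetus is not in these data. The comparison asks how raised maternal cortisol late in pregnancy alters gene expression in fetal muscle.

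The respiratory chain passes electrons from NADH and succinate to oxygen and pumps protons across the inner mitochondrial membrane, and ATP synthase uses the return of those protons to make ATP. Complexes I and II feed in electrons, complex IV hands them to oxygen, and complex V is a rotary enzyme built of a membrane ring, a catalytic head and a stalk that holds the head still. Most subunits are encoded in the nucleus, and muscle fibres that work aerobically hold more of them than fast glycolytic fibres. In sheep, cortisol rises before birth and accompanies the maturation of several fetal organs.

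All 8 genes had a lower mean signal in the cortisol group, by 0.09 to 0.74 on the log2 scale, but none passed the adjusted threshold. That held for the whole array: limma called 0 of 10734 tested probes at an adjusted p of 0.05 (0.0% called), and 732 had an unadjusted p under 0.05 (6.82%). Of the 8 genes, 6 had an unadjusted p under 0.05, all of them lower. At that p, 4.68% of tested probes were lower and 2.14% higher. The lower share varied with brightness: 67 of 1027 probes at a mean signal of 2 to 4, and 46 of 343 at 4 to 6. It was 24 of 160 at 6 to 8 and 9 of 99 at 8 to 12. Among the 709 tested named genes 7.48% had such a p, 3.81% lower and 3.67% higher. A lower mean was found in 54.0% of tested probes and in 52.3% of tested named genes. By brightness it was found in 66.5% of probes at 4 to 6, 53.1% at 6 to 8 and 47.5% at 8 to 12. The median log2 fold change of the 8 genes was -0.36, beside -0.023 over tested probes and -0.012 over tested named genes. The 8 genes were chosen with earlier results of these data known, so these contrasts are descriptions and do not test a shift of the set. All signals are log2 units relative to each array's 75th percentile of intensity, with n = 6 arrays per group, and fold changes are cortisol minus control. Probes entered the test if at least 6 arrays had them well above background. The 8 genes were on 11 probes, all well above background on 12 of 12 arrays and saturated on none.

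What each spot reads can be seen from its 60-base design, and it bears on how the probes below were weighed. A sense-strand probe is needed here, since the labelled material is complementary to mRNA. The NDUFA12 and SDHD probes are shown, with no part in capitals, because the array assigns each to a RefSeq transcript. Both hold at least 1 open reading frame, but on either strand, so the frames do not settle the strand. The brightest ATP5MC1 probe runs over the TGA stop codon of the reading frame, in capitals. From the ATP5MC2 and ATP5PO probes and the second RefSeq probe of ATP5MC1, the last 30 bases are given, with the polyadenylation signal (AATAAA or ATTAAA) in capitals, which marks them as sense strand near the end of the mRNA.
NDUFA12: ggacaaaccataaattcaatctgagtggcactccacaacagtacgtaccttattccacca
SDHD: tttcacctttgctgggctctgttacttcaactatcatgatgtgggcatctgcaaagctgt
ATP5MC1, brightest probe: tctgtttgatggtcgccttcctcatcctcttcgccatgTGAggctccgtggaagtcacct
ATP5MC1, second probe: taccATTAAAcacaatgtttctctaaaaaa
ATP5MC2: cagaaggaagacaAATAAAtactgtattaa
ATP5PO: aacttggagcgacAATAAAatgcttcctga

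The ATP5PD and COX5A probes were designed on expressed sequence tags (ESTs), single-pass cDNA reads whose strand the files do not give. The ATP5PD probe is shown in the orientation printed on the array and as its reverse complement. Capitals mark an ATG, read as CAT on the other strand.
ATP5PD, as on the array: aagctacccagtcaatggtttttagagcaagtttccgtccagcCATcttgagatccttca
ATP5PD, reverse complement: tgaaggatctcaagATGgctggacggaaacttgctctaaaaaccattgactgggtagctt
The reverse complement holds that ATG at position 15, with 15 whole codons from it to the probe's end and 0 stop codons among them. The strand on the array also holds an ATG at position 15 with 15 whole codons and 0 stops, so open frames do not tell the strands apart. As background, the frame on the reverse complement reads as the known start of subunit d. On that reading the strand printed on the array is antisense, the opposite of the strand needed here. Whether the spot reads ATP5PD mRNA was not tested, and values given for ATP5PD are those of this spot. The COX5A probe has a stop codon in every frame of both strands and no polyadenylation signal, and the files do not state its strand. The NDUFA2 probe, designed on a transcript cluster, has no open frame as on the array, 1 on the reverse strand and no polyadenylation signal, so the sequence does not settle its strand either. Without COX5A and ATP5PD the median log2 fold change of the remaining 6 genes was -0.36, and without NDUFA2 as well it was -0.35.

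Complex I, the NADH dehydrogenase through which most electrons enter the chain, was represented by 2 accessory subunits of its matrix arm. NDUFA2 signals were 6.44, 6.53, 6.41, 6.54, 6.61 and 6.50 on control arrays 1 to 6 and 5.63, 6.06, 6.25, 6.29, 5.51 and 6.34 on cortisol arrays 1 to 6. The groups did not overlap: all 6 cortisol arrays lay below every control. That arrangement was found in 0.317% of tested probes and 0.564% of tested named genes. Among tested probes with a mean signal of 6 to 8, as NDUFA2 had, 3 of 160 showed it. Among the 8 genes NDUFA2 had the narrowest spread in controls, and cortisol arrays 1 and 5 stood well below the other 4. The mean was 6.50 ± 0.0725 (SD, n = 6) in controls and 6.01 ± 0.36 in the cortisol group, a log2 fold change of -0.49 (95% CI -0.84 to -0.14), or -28.8% in linear signal. In limma the unadjusted p was 0.0099 and the adjusted p 0.693.

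NDUFA12, the other accessory subunit, gave 6.49, 6.53, 6.17, 6.43, 6.72 and 6.73 on control arrays and 5.86, 6.17, 5.97, 6.42, 5.92 and 6.61 on cortisol arrays. Cortisol arrays 4 and 6 lay among the controls, and control array 3 lay at the level of cortisol array 2, so the groups overlapped. The means were 6.51 ± 0.21 and 6.16 ± 0.30, a log2 fold change of -0.35 (95% CI -0.71 to -0.00), with an unadjusted p of 0.0489 and an adjusted p of 0.721 in limma.

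Complex II, succinate dehydrogenase, links the chain to the citric acid cycle. SDHD is 1 of its membrane anchors, which hold the haem and the ubiquinone site. Its signals were 4.23, 4.17, 3.97, 4.17, 4.18 and 3.98 on control arrays and 3.57, 3.93, 3.55, 4.02, 3.38 and 3.82 on cortisol arrays. On 5 of 6 cortisol arrays the signal was below every control, and cortisol array 4 fell inside the control range. The means were 4.12 ± 0.11 and 3.71 ± 0.25, a log2 fold change of -0.41 (95% CI -0.71 to -0.11; unadjusted p 0.0119, adjusted p 0.693 in limma). A further probe, unnamed in the files, carries the same transcript-cluster number as the SDHD probe and was not counted among the 11. Its log2 fold change was -0.43 (95% CI -0.76 to -0.11), and over the 12 arrays it correlated with the SDHD probe at r = 0.89, or 0.76 once each group was centred on its own mean.

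Complex IV, cytochrome c oxidase, was represented by COX5A, a nuclear-encoded subunit on the matrix side of the enzyme. The COX5A probe was the dimmest of the 8 genes' main probes, although probe brightness does not rank transcripts. Control arrays gave -1.95, -2.21, -1.54, -1.68, -1.59 and -2.01, and cortisol arrays -2.65, -2.22, -3.43, -2.07, -2.92 and -2.14. Cortisol arrays 1, 3 and 5 were low, cortisol array 2 was just under the lowest control, and cortisol arrays 4 and 6 were above that control alone. The means were -1.83 ± 0.27 and -2.57 ± 0.53, a log2 fold change of -0.74 (95% CI -1.24 to -0.24), the largest difference among the 8 genes at this setting and the one with the widest interval. With normexp background correction COX5A was at -0.41, behind NDUFA2 at -0.46. The unadjusted p was 0.00688 and the adjusted p 0.693 in limma.

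ATP synthase was covered by 4 genes, which differed among themselves. ATP5MC1 and ATP5MC2 encode the same mature subunit c, the building block of the rotating membrane ring, with different import sequences. ATP5MC1 signals on its brightest probe were 9.03, 8.92, 8.78, 9.12, 9.05 and 9.06 on control arrays and 8.36, 8.65, 8.70, 8.71, 8.49 and 8.87 on cortisol arrays. Only cortisol array 6 lay inside the control range, whose low end was control array 3. The means were 8.99 ± 0.12 and 8.63 ± 0.18, a log2 fold change of -0.36 (95% CI -0.63 to -0.08; unadjusted p 0.0142, adjusted p 0.693 in limma).

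For ATP5MC2 the groups overlapped throughout. Its signals were 8.15, 8.19, 7.97, 8.17, 8.31 and 8.32 on control arrays and 7.72, 7.98, 8.37, 7.98, 8.36 and 8.20 on cortisol arrays. Cortisol array 1 was below every control, cortisol arrays 3 and 5 were above every control, and the other 3 lay within the control range. The log2 fold change was -0.09 (95% CI -0.39 to 0.22), with an unadjusted p of 0.558 and an adjusted p of 0.925 in limma. It was -0.01 without cortisol array 1 and -0.14 without cortisol array 3 or 5. Its interval overlaps that of ATP5MC1, and the difference between the 2 genes' fold changes was not tested. The main probes of ATP5MC1 and ATP5MC2 share no run longer than 5 bases.

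ATP5PD and ATP5PO belong to the peripheral stalk: ATP5PD encodes subunit d, and ATP5PO encodes the oligomycin-sensitivity-conferring protein that ties the stalk to the catalytic head. ATP5PO signals were 7.20, 7.17, 6.90, 7.04, 7.30 and 7.21 on control arrays and 6.62, 6.84, 6.95, 6.86, 6.64 and 7.00 on cortisol arrays. On 4 cortisol arrays ATP5PO was below every control, and the other 2 exceeded control array 3 alone. The means were 7.14 ± 0.15 and 6.82 ± 0.16, a log2 fold change of -0.32 (95% CI -0.59 to -0.04; unadjusted p 0.026, adjusted p 0.693 in limma).

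The ATP5PD probe gave 1.99, 1.98, 1.63, 2.15, 2.03 and 2.01 on control arrays and 1.42, 1.91, 1.78, 1.77, 1.49 and 1.89 on cortisol arrays. Apart from control array 3, at 1.63, every control exceeded every cortisol array. With that array in, 2 cortisol arrays lay below every control. The log2 fold change was -0.26 (95% CI -0.56 to 0.04), with an unadjusted p of 0.0876 and an adjusted p of 0.757 in limma. Over the 8 genes, 6 had at least 4 cortisol arrays below every control, which 6.28% of tested probes and 5.08% of tested named genes had. Among tested probes with a mean signal of 6 to 8, 19 of 160 had this.

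**Figure D1:**
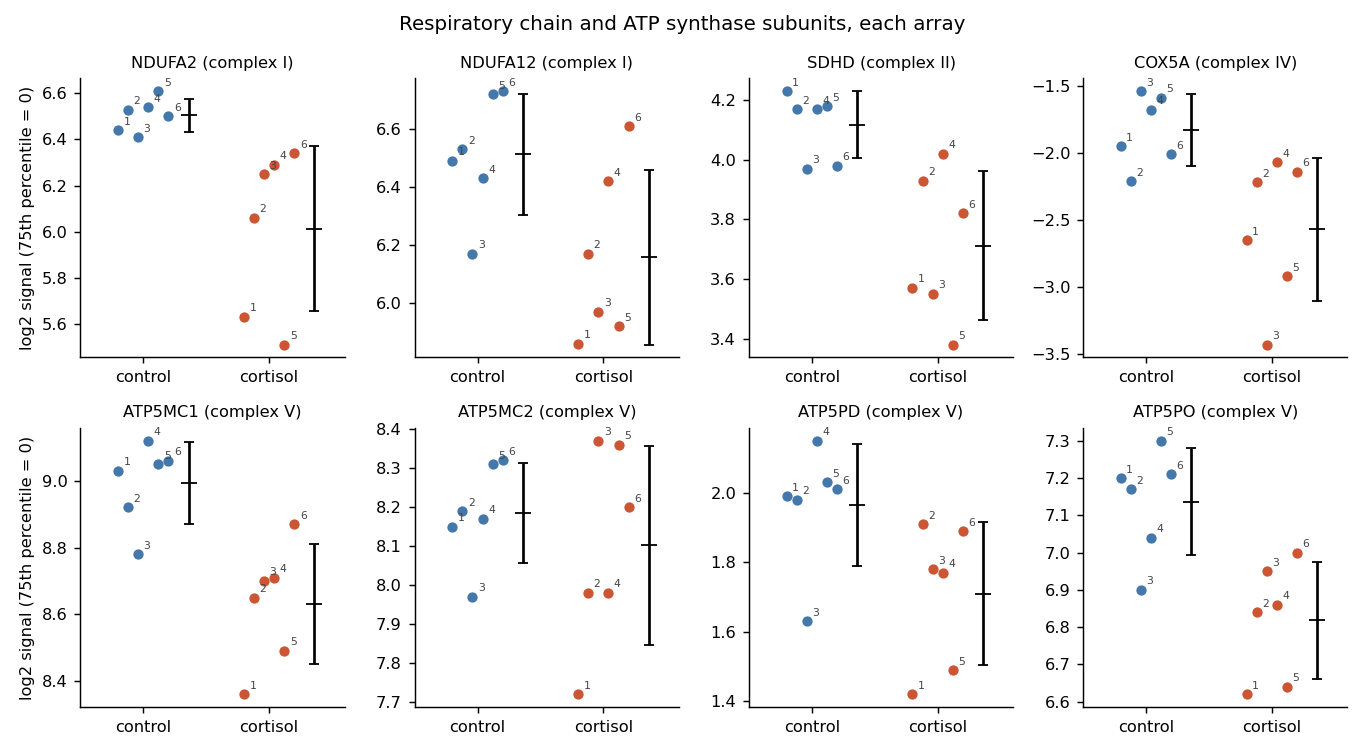
Log2 signal (75th percentile of each array = 0) of the 8 genes on the 6 control (blue) and 6 cortisol (red) arrays, numbered by replicate, with mean ± SD in black; each panel has its own axis. The groups do not overlap for NDUFA2, and for ATP5MC2 they overlap throughout; control array 3 is the lowest control for 7 of the 8 genes.

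ATP5MC1 was the only 1 of the 8 genes with several probes, and these fell into a pair of kinds. The second RefSeq probe, over the polyadenylation signal printed above, gave 8.72, 8.65, 8.41, 8.77, 8.86 and 8.89 on control arrays and 8.05, 8.25, 8.19, 8.28, 7.72 and 8.39 on cortisol arrays. All 6 cortisol arrays were below every control on this probe. That arrangement was found in 0.317% of tested probes, and in 2 of 99 with a mean signal of 8 to 12. The log2 fold change of the second RefSeq probe was -0.57 (95% CI -0.88 to -0.26). Its unadjusted p was 0.00167, the smallest of the 11 probes, and its adjusted p 0.693 in limma. This probe tracked the brightest probe across arrays at r = 0.93 (0.80 group-centred).

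The other 2 ATP5MC1 probes were designed on 1 EST that the array's annotation assigns to the same gene number, share 59 of 60 bases, and correlated with each other at r = 0.99. Against the RefSeq probes their r was 0.45 to 0.51. Signals on the first of them ran from -2.16 to 0.05 in controls and from -1.80 to -0.51 in the cortisol group, and the extremes in controls were arrays 6 and 5. Neither EST probe separated the groups: the log2 fold changes were -0.45 (95% CI -1.15 to 0.25) and -0.52 (95% CI -1.27 to 0.23), with unadjusted p of 0.187 and 0.158 and adjusted p of 0.794 and 0.779 in limma. They were -0.26 and -0.31 without control array 5, and -0.70 and -0.81 without control array 6. Over all 11 probes, each had a lower mean in the cortisol group, 7 had an unadjusted p under 0.05, and 0 passed the adjusted threshold. Of all tested probes, 54.0% had a lower mean. An unadjusted p under 0.05 was found in 6.82% of them in either direction, and in 4.68% with a lower mean. The 11 probes count ATP5MC1 more than once, through probes that correlated with each other, so they are not 11 separate measurements.

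**Figure D2:**
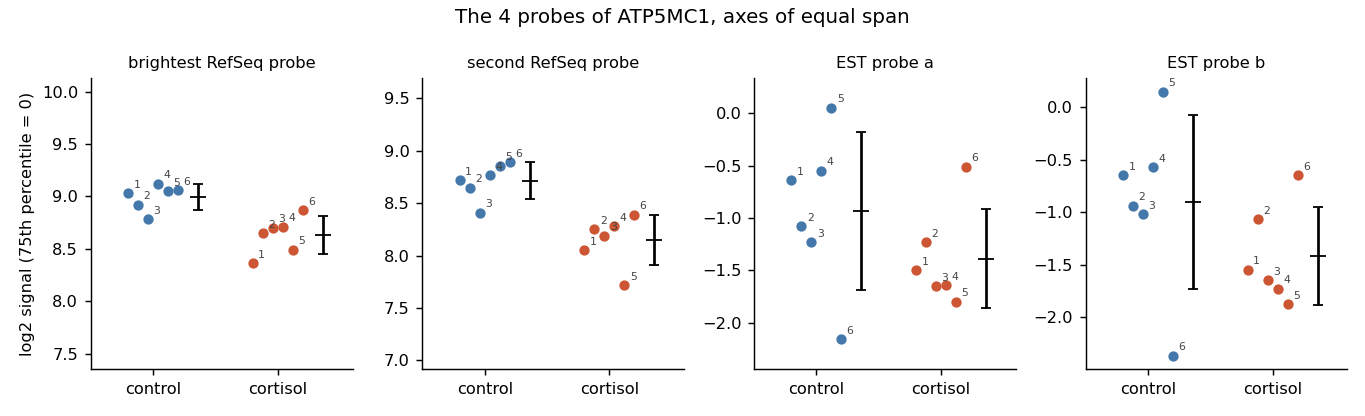
Log2 signal of the 4 ATP5MC1 probes on control (blue) and cortisol (red) arrays, numbered by replicate, with mean ± SD; the axes cover equal spans at different levels. On the second RefSeq probe every cortisol array lies below every control, as on 0.317% of tested probes. Both EST probes spread widely in controls, with SDs of 0.75 and 0.83 against 0.12 and 0.18 on the RefSeq probes.

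**Figure D3:**
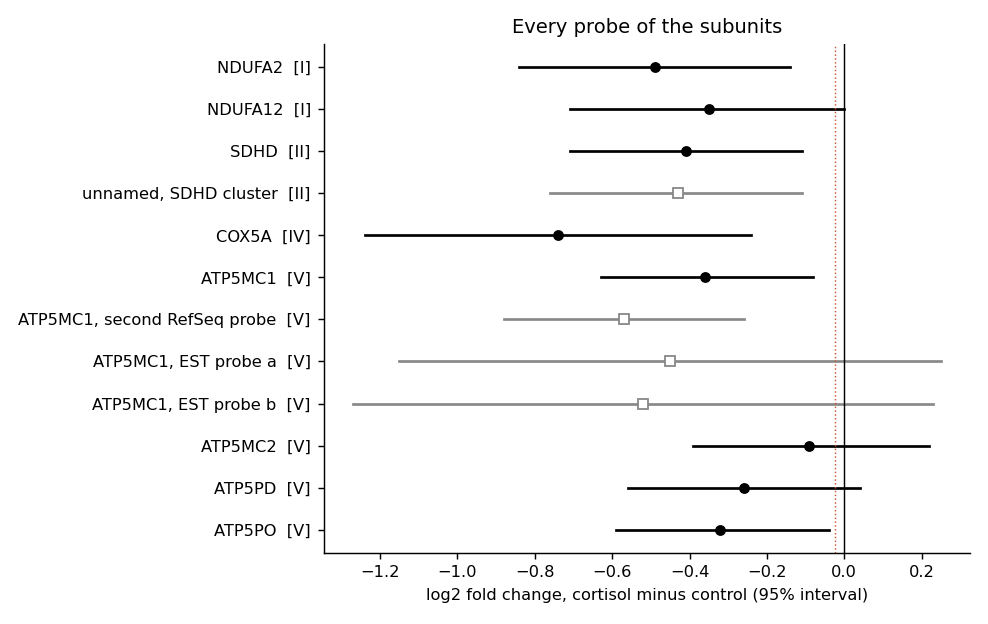
Log2 fold change (cortisol minus control) with 95% interval from limma for the 11 probes of the 8 genes and the unnamed probe of the SDHD cluster; filled circles are the main probes and open squares the others. The complex is in brackets, and the dotted line is the median of all tested probes, -0.023; every point estimate is below 0, and the intervals of ATP5MC2, ATP5PD and both EST probes include 0.

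By complex, the mean log2 fold change was -0.42 for complex I (2 genes), -0.41 for complex II (1 gene), -0.74 for complex IV (1 gene) and -0.25 for complex V (4 genes). With normexp background correction these were -0.38, -0.37, -0.41 and -0.22, so complex IV no longer stood apart. With 1 or 2 genes for each of complexes I, II and IV, these are descriptions of single genes more than of complexes. Set against the control mean, complex I lay between -0.22 and 0.16 on control arrays and between -0.79 and -0.03 on cortisol arrays. Complex V lay between -0.25 and 0.10 and between -0.54 and -0.08, and only 2 cortisol arrays were below every control. The spread was wider in the cortisol group for the mean of all 8 genes, with an SD of 0.21 against 0.097 in controls.

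The estimated difference was not the same in each part of the slides, but no probe's interaction of group and slide columns passed adjustment. Each slide row in use held 4 of the arrays, a pair of each group, and replicates 1, 3 and 5 of both groups were in columns 1 and 2, replicates 2, 4 and 6 in columns 3 and 4. Groups were therefore balanced over the column pairs, though not over single columns. In columns 1 and 2 alone the median log2 fold change of the 8 genes was -0.49 and 10.6% of tested probes had an unadjusted p under 0.05; in columns 3 and 4 alone the values were -0.19 and 1.91%. COX5A differed most, with log2 fold changes of -1.31 and -0.17 in the 2 column pairs. Its interaction of group and column pair was 1.13 (95% CI 0.40 to 1.87; unadjusted p 0.0057, adjusted p 0.526 in limma). For every other of the 8 genes the 95% interval of that interaction included 0. No tested probe passed that interaction test after adjustment, and 708 (6.6%) had an unadjusted p under 0.05. NDUFA2 gave -0.69 and -0.29, NDUFA12 -0.54 and -0.17, and SDHD -0.63 and -0.18 in the 2 column pairs. ATP5MC2 went the other way, at 0.00 and -0.17. The part of slide position in these differences was not tested beyond the interaction.

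**Figure D4:**
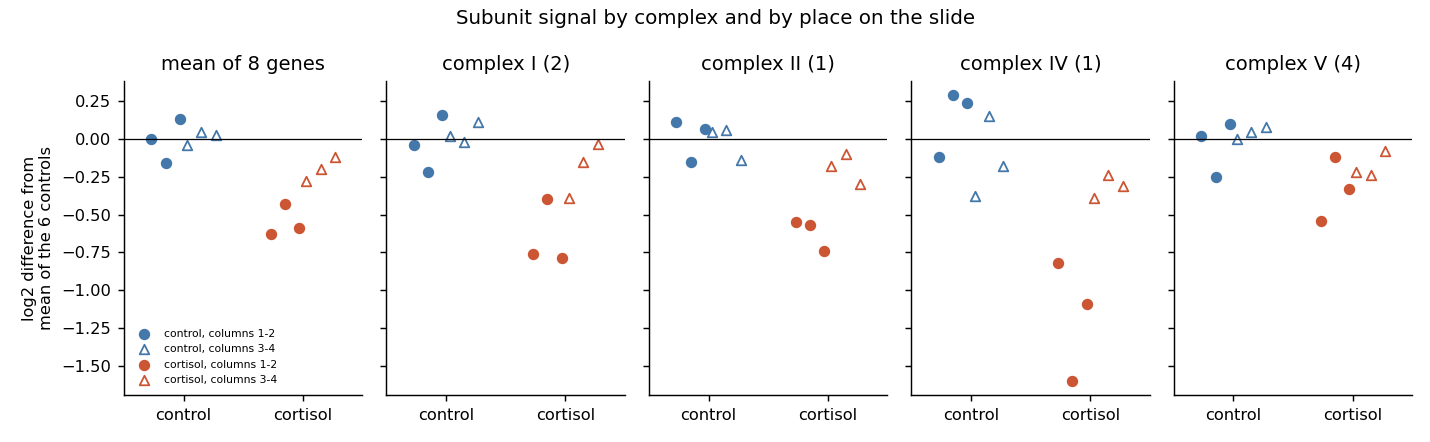
Mean log2 difference from the mean of the 6 controls for all 8 genes and for each complex (number of genes in brackets), 1 point per array; filled circles are arrays in slide columns 1 and 2 and open triangles those in columns 3 and 4. For the mean of 8 genes, cortisol arrays in columns 1 and 2 lie at -0.63, -0.43 and -0.59 and those in columns 3 and 4 at -0.28, -0.20 and -0.12, and 5 of 6 cortisol arrays are below every control.

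Taking each slide row by itself, with 4 arrays in each of 3 rows, the median log2 fold change of the 8 genes was -0.45, -0.16 and -0.45. Of the 8 genes, 8, 7 and 8 had a lower mean, and the exception was ATP5MC2 at 0.11 in the second of them. With 2 arrays per group, 0 of the 8 genes reached an unadjusted p under 0.05 in any row, where 6.43%, 2.78% and 9.18% of tested probes did.

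Control array 3 stood apart from the other controls. It was the lowest control for 7 of the 8 genes, and for COX5A it was the highest. Without it, 7 of the 8 genes in place of 6, and 6.7% of tested probes in place of 6.82%, had an unadjusted p under 0.05, and the median log2 fold change was -0.41. The same array had the highest MB signal (7.00) and the highest MYH7 signal (3.97) among controls and the lowest MYH1 signal (0.50). Cortisol array 1 was the lowest of its group for 5 of the 8 genes, and cortisol array 6 the highest for 4.

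Within groups, most of the subunits varied together from array to array. Over the 28 pairs of the 8 genes the median Pearson r was 0.59 after each group had been centred on its own mean, with a range from -0.48 to 0.91. Over all pairs of tested probes the median was 0.0030 and the 95th percentile 0.60. NDUFA2, NDUFA12, ATP5MC1, ATP5PD and ATP5PO formed a block with r between 0.69 and 0.91 for each of their pairs. The ATP5PD values come from the EST probe that may be antisense, as described above. ATP5MC1 and ATP5PD had the highest value: r = 0.91 (permutation p = 0.00062, adjusted over 28 pairs 0.0174) and Spearman rho = 0.78 (permutation p = 0.00523, adjusted 0.0659). Without the 2 arrays farthest from the median this r was 0.79, and the other 9 pairs of the block lay between 0.49 (ATP5PD and ATP5PO) and 0.71 (NDUFA2 and ATP5MC1). By Pearson r 8 of the 28 pairs passed the adjusted threshold, and by Spearman rho 0 passed. All 8 lay within that block, but the block was drawn from these same r values, so their place in it is no separate result.

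SDHD was nearer to the block than COX5A was: its r was 0.49 to 0.67 with the 5 genes, and 0.63 with COX5A (permutation p = 0.0807, adjusted 0.174). COX5A ranged from -0.01 with ATP5PO to 0.44 with NDUFA12. ATP5MC2 was negatively related to COX5A, at r = -0.48 (permutation p = 0.224, adjusted 0.316; rho = -0.55), and to SDHD, at r = -0.28, and none of its 7 pairs passed. Without centring, the median r was 0.79, a value that includes the difference between the groups. The genes were read on the same 12 samples and scaled by the same percentiles, so the pairs are not independent of each other.

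**Figure D5:**
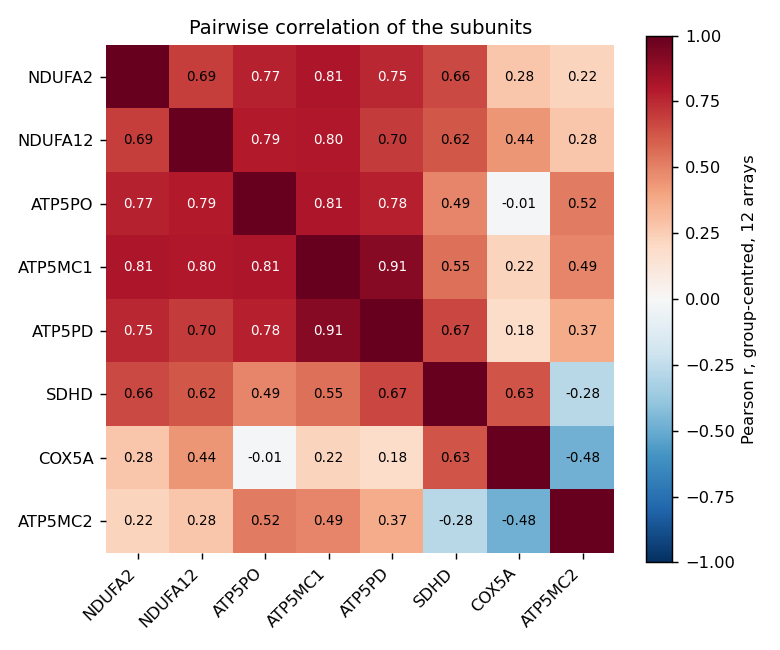
Pearson r between each pair of the 8 genes over 12 arrays, each group centred on its own mean, from -1 (blue) to 1 (red). The 5 genes at the upper left are related at 0.69 to 0.91, while COX5A and ATP5MC2 show weak or negative values with most others.

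Genes outside the set were ranked by their group-centred Pearson r over 12 arrays with the mean standardised signal of the 8 genes. Among the 5 named genes most alike were SLC25A11, the mitochondrial oxoglutarate carrier (r = 0.91), ENDOG, a mitochondrial nuclease (0.91), RTP4 (0.89) and LOC443244, described on the array as a system N amino acid transporter (0.87). ENDOG averaged 3.35 ± 0.22 in controls and 2.64 ± 0.52 in the cortisol group, a log2 fold change of -0.71 (95% CI -1.19 to -0.23; unadjusted p 0.0066, adjusted p 0.693 in limma). SLC25A11 had a log2 fold change of -0.38 (95% CI -0.85 to 0.09). RTP4 and LOC443244 had log2 fold changes of 0.15 and 0.11, so a like pattern within groups came with and without a difference between them. No p is given for this ranking, which took the highest of many values.

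Other genes of the pathway were few on the array by name. Of 40 listed assembly factors, 1 was present: COX15, which makes the haem A of complex IV, was at -1.07, -0.91, -1.42, -1.08, -1.08 and -0.97 on control arrays and at -1.73, -1.16, -2.04, -1.61, -1.65 and -1.50 on cortisol arrays. Its signal on 5 cortisol arrays was under the lowest control, and the log2 fold change was -0.53 (95% CI -0.86 to -0.19; unadjusted p 0.00482, adjusted p 0.693 in limma). Of 26 listed genes of the citric acid cycle and its feeders, 1 was measured, ME1, the cytosolic malic enzyme, with a log2 fold change of 0.32 (95% CI -0.43 to 1.06).

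A further 10 of 32 listed mitochondrial carriers, channels and regulators were measured, of which 7 had a lower and 3 a higher mean, with a median log2 fold change of -0.09. SLC25A4, the ADP/ATP carrier of muscle mitochondria, averaged 9.21 ± 0.21 and 8.83 ± 0.22, a log2 fold change of -0.37 (95% CI -0.69 to -0.06; unadjusted p 0.024, adjusted p 0.693 in limma). VDAC1, the pore of the outer membrane, had means of 3.21 ± 0.20 and 2.83 ± 0.17 and was below every control on 5 cortisol arrays, with a log2 fold change of -0.38 (95% CI -0.67 to -0.08; unadjusted p 0.0163, adjusted p 0.693 in limma). These were the 2 of the 10 with an unadjusted p under 0.05. NRF1, a transcription factor for nuclear-encoded mitochondrial genes, had a log2 fold change of 0.31 (95% CI -0.13 to 0.75), and UCP3, an inner-membrane carrier, 0.98 (95% CI -1.0 to 2.95) with a control SD of 2.44. PPARGC1A, a coactivator of mitochondrial biogenesis named here after its values were seen, was at -0.09 (95% CI -0.98 to 0.80).

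Fibre and cell-type markers are given because the subunits differ in level between fibre and cell types. In bulk muscle, fewer cells or fibres of a type and less RNA per cell cannot be told apart. MYOD1 and MYOG, regulators of the skeletal-muscle lineage, were well above background on all 12 arrays, and none of 11 listed heart genes was on the array by name. The 2 measured slow-fibre genes of 11 listed had lower means. MB, myoglobin, was at -1.46 (95% CI -2.49 to -0.43), with an unadjusted p of 0.00883 and an adjusted p of 0.693 in limma. It was lower on all 6 cortisol arrays than on every control, as were 0.317% of tested probes and 0.564% of tested named genes. MYH7, the slow myosin heavy chain, was at -1.0 (95% CI -2.25 to 0.25), with an unadjusted p of 0.109 and an adjusted p of 0.764 in limma. The summed linear level of MB and MYH7, in multiples of the 75th percentile, was 69.9 to 144 in controls and 8.31 to 64.6 in the cortisol group. The 4 measured fast-fibre genes of 12 listed had higher means, from 0.18 for MYLPF and 0.26 for TNNC2 to 1.06 for MYH2 and 1.17 for MYH1, none with an unadjusted p under 0.05, and their sum was 809 to 3200 and 1760 to 3190. Of the developing-muscle genes, 3 of 8 were measured and all had lower means, MYF5 at -0.60, MYOD1 at -0.52 and MYOG at -0.17. Group-centred r with the 8 genes' mean was -0.26 for MB, -0.29 for MYH7 and 0.49 for MYH1. Among the other listed markers it was highest for MYOD1 (0.83), KDR of endothelium (0.83), PLIN1 of adipocytes (0.73) and AHSP of red cells (0.71). These were named after their values were seen, and AHSP was well above background on 9 arrays. Other measured genes of the same lists were lower: MYOG 0.47, MYF5 -0.02, PECAM1 0.63, NOS3 0.53 and TEK 0.24. The remaining adipocyte genes were at 0.19 (PPARG), 0.08 (LEP) and -0.67 (FABP4), and HBB of red cells at 0.37. The part of fibre makeup in the subunit signals was not tested.

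Among markers of other cell types, the 3 measured leukocyte genes of 9 listed had higher means, with a summed level of 0.398 to 0.581 in controls and 0.514 to 0.863 in the cortisol group, led by ITGB2 at 0.62 and FCER1G at 0.59. The sums overlapped for the 4 measured endothelial genes of 7 (6.94 to 12.4 and 6.84 to 12.3), the 4 fibroblast genes of 8 (94.5 to 168 and 94.0 to 205), the 4 adipocyte genes of 6 (1.33 to 2.04 and 1.83 to 2.99) and the 2 erythroid genes of 8 (1.13 to 26.6 and 2.58 to 41.4). The 6 measured liver plasma-protein genes of 7 summed to 0.868 to 148 in controls and 0.835 to 3.63 in the cortisol group. AHSG, the fetal liver protein fetuin-A, named here after its values were seen, was highest on control arrays 1 (5.31) and 4 (6.92). It was also above 0 on control array 6 (2.10) and cortisol array 6 (0.93), which were kept in. Without control arrays 1 and 4 the 8 genes all still had lower means, with a median log2 fold change of -0.34. Of the 8, 2 in place of 6 then had an unadjusted p under 0.05 in limma, beside 4.73% of tested probes in place of 6.82%. The part of these cells and transcripts in the subunit signals was not tested.

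Array quality did not separate the groups in range. The 75th percentile of intensity was 187.3 to 361.3 units in controls and 253.7 to 446.8 in the cortisol group, and 66.4% to 76% of probes per array were well above background. Pairs of arrays correlated at 0.949 to 0.983 over tested probes.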

How the data were processed

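RNA of 12 samples was labelled with Cy3 from 500 ng and hybridised to a 1-colour Agilent sheep array. Per the submitters' processing notes, scans were read in Agilent Feature Extraction, version 10.1.1.1. Per the file headers, the authors' scanner files give a processed intensity, already background-subtracted but not scaled between arrays. Other columns used are 0 or 1 flags, such as well above background, per the file headers. The authors also deposited a table of log2 values, used as an alternative, without naming the tool that normalized it.

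Spots of a probe were averaged without outlier-flagged spots, log2-transformed, and scaled by subtracting the 75th percentile of non-control probes on the same array. Groups were compared with limma 3.58.1 in R 4.3.3 (lmFit, eBayes, two-sided, no covariate) over 10734 of 15008 probes, with Benjamini-Hochberg adjustment and a threshold of 0.05. The number of arrays limits the precision; the median standard error was 0.21. For each gene the brightest tested probe was used. Permutation tests of correlations, two-sided, drew 100000 resamples within groups. Python 3.11.15, numpy 2.4.6, pandas 2.3.3 and matplotlib 3.10.9 were used.

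Names came from the array's annotation and RefSeq's sheep gene table of the assembly ARS-UI_Ramb_v3.0; 1646 probes carried a name, and NDUFA2 and SDHD were named from the array's description. No genome coordinates are given, since no source used here gives the array's build. Promoter motifs and protein sequences were not analysed here. The members and gene lists were chosen with earlier results of these data known. The named genes are the 8 subunits, listed assembly and oxidative phosphorylation genes on the array, up to 4 genes with the largest fold change of each related list, and the 5 most alike, of which 1 is not reported here.

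Fitting was tested on simulated data with 200 changed probes among 10719. A log2 fold change of -1 was recovered in 56%, of 1 in 64%, of -2 in 92% and of 2 in 90%, with 9 false calls. Noise was drawn independently for each probe, so the recovery need not hold for these arrays. Alternatives were background correction, scaling, filters, blocks, subsets of arrays, variance models and each array left out. Added after the data were seen were the interaction of group and column pair, leaving out control arrays 1 and 4, and leaving out COX5A and ATP5PD, with or without NDUFA2. Arrays with the same replicate number share a slide row and column pair; their deviations from the group means correlated at -0.11 to 0.25, not above 0.1 in every pair, so the numbers were not taken as pairs.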

Additional observations from a re-analysis of the deposited data

Results flagged for a closer look

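In groups of 6 arrays, a sample was singled out when its gap to the nearest other passed Dixon's 95% limit as a share of the group's range; chance does so in about 1 in 20 groups. Of 54 groups checked, 6 did, all of them on control array 3, so they are not independent of each other. Among the subunits it was ATP5PD, at 1.63 against 1.98 to 2.15 on the other controls. Among the other genes, that array was lowest for COX15 (-1.42), MYH1 (0.50), SLC25A11 (1.62) and LOC443244 (-5.33), and highest for SLC12A4 (-0.96), a potassium-chloride cotransporter that was named after its values were seen because its group-centred r with the 8 genes was -0.94. SLC25A11, LOC443244 and SLC12A4 were chosen for following or opposing the 8 genes, for whose mean this array was also the lowest control. Without control array 3 the log2 fold change of the 8 genes had a median of -0.41.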

How the results depend on the processing

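All 8 genes had a lower mean in 31 of 33 settings. In the other 2, slide 2 row 1 alone and columns 1 and 2 alone, 7 of 8 did. In none of the 33 did any of the 8 pass the adjusted threshold. The settings are not separate evidence of direction. Those that changed only the filter, the block (the replicate block included) or the trend of the variance could not alter these fold changes in this balanced design. The number with an unadjusted p under 0.05 was 4 to 7 with each array left out in turn. The median log2 fold change of the 8 genes was -0.36 with the replicate block, where 4 of 8 genes and 7.85% of tested probes had an unadjusted p under 0.05 and 0 probes passed. Leaving out 1 array at a time gave a median of -0.42 to -0.30, complex I -0.50 to -0.35, complex II -0.47 to -0.34, complex IV -0.84 to -0.57, complex V -0.30 to -0.20, a median group-centred r of 0.55 to 0.63, and 0 probes past the adjusted threshold. Slide 1 alone gave 1 probe past it and columns 1 and 2 alone 5, none of them a subunit. Slide 2 row 1 alone gave a median of -0.16, complex I -0.15 and complex V -0.08, with ATP5MC2 at 0.11. Columns 1 and 2 alone gave complex II -0.63 and complex IV -1.31, with ATP5MC2 at 0.00; columns 3 and 4 alone gave a median of -0.19, complex II -0.18 and complex IV -0.17, with both EST probes of ATP5MC1 at 0.14. Those subsets hold 4 or 6 arrays; any further cause was not tested. The replicate numbers were not taken as pairs because not every pair's deviations correlated above 0.1, although 3 of 6 cortisol arrays correlated best with the control of their own number. The mean of the 8 genes was lower in the cortisol array of all 6 such pairs, which restates the group difference. The share of all tested probes with that arrangement was not computed, so the count is no separate evidence. With 6 arrays per group, the simulated recovery of 56% at a log2 fold change of -1 limits what can be called, and every difference among the 8 genes was smaller than that.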
